A study of Mus musculus with 6 samples.

Results

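The genes described here are 9 transcription factors that shape the effector state of regulatory T cells (Tregs): Irf4, Batf, Prdm1, Maf, Gata3, Tbx21, Rora, Bcl6 and Nfil3. They were chosen by name, with earlier results of these data known, and each matched 1 row among the 15319 gene symbols of the count table. RNA-Seq was performed on Tregs isolated from lung tumors of 3 WT and 3 cKO samples. WT mice carried Foxp3Yfp-Cre, and cKO mice carried Foxp3Yfp-Cre together with Xrcc6flox/flox, so that the Cre allele was shared by both groups and Xrcc6, which encodes the DNA end-binding protein Ku70, was the gene deleted. Cre was expressed from the Foxp3 locus, which restricts deletion to cells that have expressed Foxp3. All mice were 8 to 10 weeks old when 1000000 cells of LLC, a mouse lung carcinoma line, were given through the tail vein, and tumors were taken 21 days later. The comparison asks whether loss of Ku70 in Tregs alters the factors of the effector program.

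Tregs suppress other immune cells and depend on FOXP3. In tissues and tumors many of them take on an effector state, in which IRF4 and BATF, which bind DNA together at composite sites, act after antigen receptor signaling, and Blimp-1, the product of Prdm1, marks terminal effector differentiation. Tregs can also express the factors that define helper T cell lineages. T-bet, encoded by Tbx21, serves type 1 responses, GATA3 serves type 2 responses and tissue residence, and BCL6 serves follicular cells. RORα and c-MAF take part in type 17 responses, and c-MAF also in Il10 expression. NFIL3, a basic leucine zipper factor, acts in several lymphoid lineages.

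Total counts ranged from 19032620 to 23159815 per library. WT replicate 2 stood apart, with 11513 genes with a count against 14442 to 14737 in the others and a highest correlation with any other library of 0.93 against 0.991 to 0.993, so the fold changes of the 9 factors and the medians of the lists around them are given with it and without it. Xrcc6 was at 20.9 to 63.1 CPM (counts scaled to library size with TMM factors) in WT and at 3.51 to 5.24 CPM in cKO libraries. The labels do not say whether the libraries of a group came from separate mice, so p-values measure the spread between these samples, which may be in part technical. In such bulk samples, fewer cells with a transcript and less of it per cell cannot be told apart. The Treg markers were present in every library, with Foxp3 at 150.4 to 282 CPM, and their 10 genes summed to 5341 to 7109 CPM in WT and 5479.7 to 6092 CPM in cKO libraries. Marker lists of other cells summed, in WT and cKO libraries, to at most 65.0 and 55.1 CPM for B and plasma cells, to 37.2 to 49.3 and 32.7 to 43.0 CPM for ILC2 and mast cells, and to 98.3 to 184 and 113 to 154 CPM for lung epithelium and stroma. The neutrophil list summed to 10.1 to 20.5 CPM in WT and 15.5 to 19.4 CPM in cKO libraries. Of its 8 genes, 3 were higher in cKO at an unadjusted p under 0.05 in edgeR. The same held for 2 of 7 B and plasma genes, beside 144 of all 15315 genes. The sums of the red blood cell list did not overlap, at 0 to 9.75 CPM in WT and 10.9 to 36.1 CPM in cKO libraries. For 2 of its 5 genes the groups did not overlap, beside 8.24% of all genes. The part of these other cells in the levels of the 9 factors was not tested. The lists of CD8 T and NK cells and of macrophages and dendritic cells are given beside Tbx21 and Maf.

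The sequences upstream of 4 members are shown because they form the pair with the highest correlation over all 6 libraries, Tbx21 with Batf, and the pair with the highest over the 5 without WT replicate 2, Prdm1 with Nfil3 (values given with the other pairs). They are bases before the gene start in RefSeq on GRCm38.p6, written 5′ to 3′ on the strand of the gene, and for Batf and Nfil3 the bases that an annotated exon covers are left off. For Prdm1 this start, and the window before it, lie inside the longer annotated gene whose position is given below. Capitals mark a match to a searched motif.
Tbx21, chr11:97115332-97115581, minus strand: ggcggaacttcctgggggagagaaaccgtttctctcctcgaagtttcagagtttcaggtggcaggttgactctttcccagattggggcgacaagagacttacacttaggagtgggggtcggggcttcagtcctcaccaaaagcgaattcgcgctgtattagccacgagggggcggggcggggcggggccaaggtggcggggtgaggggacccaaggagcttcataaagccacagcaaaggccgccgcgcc
Batf, chr12:85686470-85686668, plus strand: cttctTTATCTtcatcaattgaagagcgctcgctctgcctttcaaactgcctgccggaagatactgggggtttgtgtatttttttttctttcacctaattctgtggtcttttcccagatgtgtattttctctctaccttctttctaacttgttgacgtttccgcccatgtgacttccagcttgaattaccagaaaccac
Prdm1, chr10:44458749-44458998, minus strand: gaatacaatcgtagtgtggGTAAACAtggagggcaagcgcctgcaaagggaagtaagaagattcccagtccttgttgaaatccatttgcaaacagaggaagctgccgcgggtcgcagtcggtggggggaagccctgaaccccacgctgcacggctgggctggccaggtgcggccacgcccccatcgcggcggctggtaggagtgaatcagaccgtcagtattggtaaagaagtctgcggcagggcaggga
Nfil3, chr13:52981074-52981289, minus strand: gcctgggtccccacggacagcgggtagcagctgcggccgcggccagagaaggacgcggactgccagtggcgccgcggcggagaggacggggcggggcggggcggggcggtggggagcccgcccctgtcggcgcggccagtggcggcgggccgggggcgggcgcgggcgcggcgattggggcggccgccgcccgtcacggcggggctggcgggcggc
RefSeq promoter entries were matched for 8 of the 9 members, not for Maf. Their windows of 250 bases, 9 in all because Bcl6 has 2, were searched on both strands for 6 motifs. The window of Batf held the GATA motif AGATAA, read on the other strand from 245 to 240 bases before the start, and 9.99% of 32851 windows of all genes held it. The forkhead motif TGTTTAC was found in the window of Prdm1, on the other strand from 231 to 225 bases before the start, and in 3.17% of all windows. No member window held the AP-1 motif TGACTCA, the interferon regulatory factor motif (GAAA, any 2 bases, GAAA), the T-box motif AGGTGTGA or the NFIL3 motif TTACGTAA, which were in 4.46%, 2.98%, 1.12% and 0.113% of all windows. A match is a description of these letters only. The printed pairs shared none of the searched motifs, and motifs this rare would seldom be shared by any pair of windows.

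All 9 factors were expressed in every library, and none differed between cKO and WT beyond the spread of the replicates. No member passed an adjusted p under 0.05 in edgeR's quasi-likelihood test, where 0.0% of 15315 genes did, and none passed an unadjusted p under 0.05, where 1.81% of genes did. Without WT replicate 2, again no member passed either threshold, against 0.00654% and 3.01% of genes, and DESeq2 on all 6 libraries called no member at either threshold, against 0.0131% and 2.0% of genes. Xrcc6, the deleted gene, had a log2 fold change of -3.06 and yet an edgeR adjusted p of 0.984 with all 6 libraries. Without WT replicate 2 its log2 fold change was -2.38 (SE 0.2) with an edgeR adjusted p of 0.0196, and it was the 1 gene called. Failing the adjusted threshold with all 6 libraries therefore does not show that a gene is unchanged. The values of the groups overlapped for all 9, while 8.24% of genes had groups that did not overlap; without WT replicate 2 all 9 again overlapped, against 16.0% of genes that did not. The fitted difference was below 0 for 8 of 9 members, among them Tbx21 at a value that rounds to 0.00, with a median log2 fold change of -0.25, beside 45.5% of all genes and a median of 0.04. Without WT replicate 2 the median was -0.12 beside -0.01 for all genes, and 8 of 9 were again below 0, beside 51.4% of all genes, with Bcl6 in place of Batf above it.

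**Figure D1:**
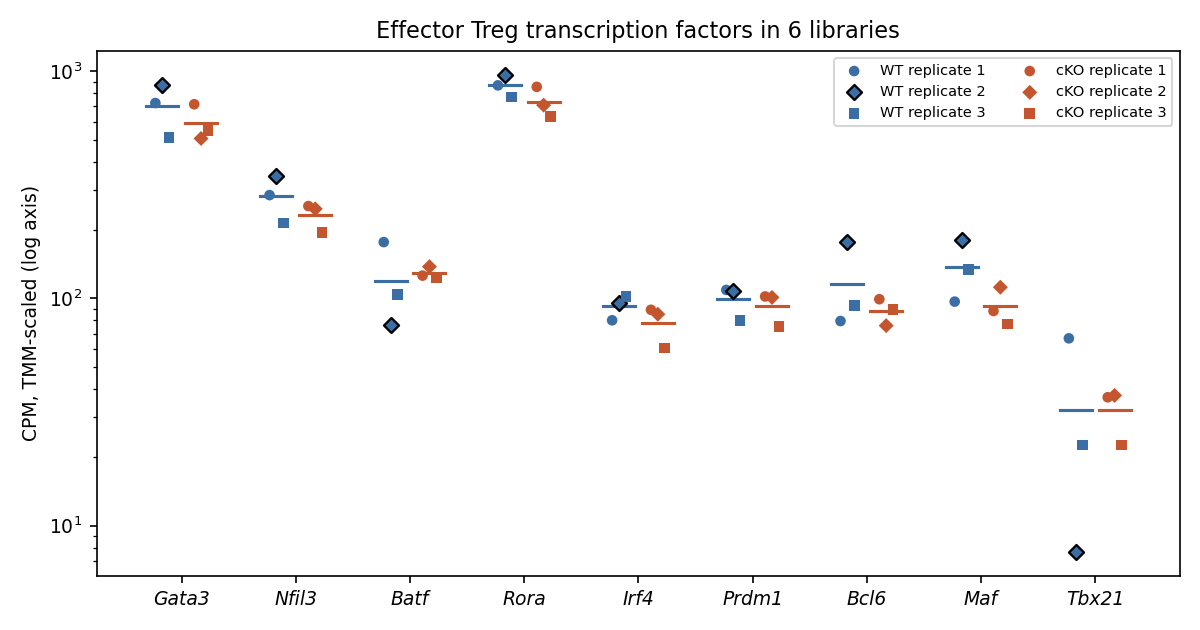
TMM-scaled CPM (log axis) of the 9 factors in each library, with WT in blue, cKO in orange, symbols for replicates, WT replicate 2 outlined, and lines for group means. The groups overlap for every factor, and WT replicate 2 is the highest library for 5 factors and the lowest for Batf and Tbx21.

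The 9 factors were ordered by level after division by the length of their merged exons. Gata3 was the most abundant per kb, with a mean of 176 CPM per kb in WT and 148 in cKO, and Nfil3 followed with 139 and 115. Both kept these ranks in all 6 libraries. Batf, at 84.8 and 91.9 CPM per kb, and Rora, at 66.5 and 56.0, came next and exchanged places in WT replicate 2 alone. The other five factors lay close together: the WT means were 18.9 CPM per kb for Irf4, 17.8 for Prdm1, 17.4 for Bcl6, 16.6 for Maf and 13.0 for Tbx21, and the cKO means were 16.0, 16.6, 13.2, 11.2 and 13.0. Rora and Irf4 were the only neighbours in this order whose ranges over all 6 libraries did not overlap, with 48.5 CPM per kb as the lowest value of Rora and 20.9 as the highest of Irf4. When the longest transcript was used as the length, Batf reached 135 CPM per kb in cKO and passed Nfil3 at 115, and Bcl6 reached 29.6 in WT and 22.4 in cKO, above the other four of the lower group. In CPM without length, the 9 factors together made up 2034 to 2826 CPM in WT and 1825 to 2367 CPM in cKO libraries, of which Gata3 and Rora made up 60.4% to 66.3%, a share of reads that also reflects the length of the transcripts.

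Irf4 and Batf work as partners downstream of the antigen receptor, yet their levels did not follow the same libraries. Irf4 (chromosome 13 from 30749226 to 30766976, plus strand) was at 80.1, 95.8 and 102 CPM in the WT libraries (replicates 1, 2 and 3, as throughout) and at 89.1, 85.2 and 60.4 CPM in the cKO libraries. A single library, cKO replicate 3, lay below the WT range, and the other two cKO libraries lay inside it. Its means were 92.7 ± 11.4 CPM in WT and 78.3 ± 15.5 CPM in cKO (SD, n = 3 each), with a log2 fold change of -0.24 (SE 0.19, 95% interval -0.69 to 0.20, edgeR adjusted p = 0.984), and the value was -0.22 without WT replicate 2. The SD of Irf4 on the log2 scale was 0.18 in WT and 0.3 in cKO. Among 8447 genes with a mean of at least 10 CPM, this was at percentile 21.8 in WT and 90.6 in cKO. The median SD of those genes was itself 0.34 in WT and 0.14 in cKO. Prdm1, with an SD of 0.25 in both groups, went from percentile 34.9 to 83.7, so the percentiles do not compare the spread between groups.

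Batf (chromosome 12 from 85686669 to 85709087, plus strand) was at 177, 76.3 and 104 CPM in the WT libraries and at 126, 138 and 123 CPM in the cKO libraries. The WT values surrounded the cKO values, which lay within 1.12-fold of each other while the WT values spanned 2.33-fold. The log2 fold change was 0.12 (SE 0.29, 95% interval -0.56 to 0.79, edgeR adjusted p = 0.984) and turned to -0.12 (SE 0.21) without WT replicate 2, the lowest library. Without WT replicate 1, the highest library, it was 0.52 with an unadjusted p of 0.0253 in edgeR, and the adjusted p was 0.677 or more. That fit called 273 genes higher and 601 lower at an unadjusted p under 0.05, against 144 and 133 with all 6 libraries.

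Prdm1 (chromosome 10 from 44437177 to 44528501, minus strand) gave nearly the same set of values in both groups. It was at 109, 108 and 80.0 CPM in WT and at 102, 101 and 75.1 CPM in cKO libraries. In each group a pair of libraries was near 100 CPM and replicate 3 was lower, and the highest library was 1.36-fold above the lowest in both. The log2 fold change of -0.10 (SE 0.19) had a 95% interval from -0.54 to 0.35, and without WT replicate 2 it was -0.03 (95% interval -0.45 to 0.39), with edgeR adjusted p-values of 0.984 and 0.997.

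Tbx21, which encodes T-bet (chromosome 11 from 97098071 to 97115331, minus strand), was the most variable member. It was at 66.7, 7.66 and 22.6 CPM in WT and at 36.7, 37.4 and 22.6 CPM in cKO libraries. WT replicates 1 and 2 were the highest and the lowest of all 6 libraries, 8.71-fold apart, and the cKO values, which spanned 1.65-fold, lay between them. The low value rested on 163 counts, above the 3 counts that a count of 0 allows for counting error only. Counting error does not cover all low values in that library, WT replicate 2. S1pr2, a gene of the follicular list below, was at 0 counts there and at 236 to 273 counts in the other libraries. Whether the low value of Tbx21 is a loss of this kind was not tested. The means were 32.3 ± 30.7 CPM in WT and 32.2 ± 8.35 CPM in cKO (SD, n = 3 each). The log2 fold change of 0.00 therefore came with an SE of 0.67 and a 95% interval from -1.57 to 1.56 (edgeR adjusted p = 0.999), which leaves room for a difference of up to that size in either direction. It was -0.47 (SE 0.39) without WT replicate 2 and 1.09 without WT replicate 1, with unadjusted p-values of 0.257 and 0.0685 from edgeR.

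The libraries with much Tbx21 also had much Nkg7, a cytotoxic granule gene listed here among markers of CD8 T and NK cells. Nkg7 was at 726, 80.7 and 268 CPM in WT and at 281, 452 and 263 CPM in cKO libraries, and it made up most of the 89.0 to 757 CPM in WT and 294 to 483 CPM in cKO libraries of the 8 listed markers of the 9. Cd8b1 was at 18.5, 5.22 and 12.5 CPM in WT and 17.3, 17.6 and 17.9 CPM in cKO libraries, and was lowest, like Tbx21, in WT replicate 2. Each of the other listed markers reached at most 7.10 CPM (Prf1) in any library, and of these Cd8a, Klrd1, Klrb1c, Klrk1 and Prf1 were at 0 in WT replicate 2 and above 0 in every other library. Such zeros were not particular to these markers. The lung epithelium markers Sftpc, at 3.16 to 10.7 CPM elsewhere, and Krt18, at 1.25 to 2.45 CPM elsewhere, were also at 0 in WT replicate 2. Ncr1 was not analysed here. The part of other lymphocytes in the level of Tbx21 was not tested. Eomes, the close relative of Tbx21 in cytotoxic cells, reached at most 1.42 CPM.

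Gata3 (chromosome 2 from 9857078 to 9890034, minus strand) was at 725, 868 and 511 CPM in WT and at 716, 506 and 548 CPM in cKO libraries. Replicate 1 had nearly the same value in both groups, as did the lowest library of each, and WT replicate 2 was above all others. The means of 701 ± 180 CPM in WT and 590.2 ± 111 CPM in cKO (SD, n = 3 each) differed by a log2 fold change of -0.25 (SE 0.25, 95% interval -0.83 to 0.34, edgeR adjusted p = 0.984), which was -0.07 (SE 0.22) without WT replicate 2. Gata3 overlaps 3 other annotated genes, 1 of them on the same strand, and Maf, Rora and Bcl6 each overlap 1 on the other strand. The strand setting of the counting is not given in the sources used here, so a share of the counts of these 4 factors is uncertain. Of its relatives, Gata1 was at 0.235 to 6.80 CPM and Gata2 was at 0 in 5 libraries and 0.464 CPM in cKO replicate 1.

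Rora (chromosome 9 from 68653786 to 69388246, plus strand), an orphan nuclear receptor, was at 867, 967 and 772 CPM in WT and at 854, 709.6 and 634 CPM in cKO libraries. A pair of cKO libraries lay below all WT libraries, and cKO replicate 1 lay among them. The log2 fold change was -0.25 (SE 0.20, 95% interval -0.71 to 0.22, edgeR adjusted p = 0.984; exact two-sided permutation test p = 0.2, where 3 against 3 libraries cannot give less than 0.1) and -0.16 (SE 0.19) without WT replicate 2.

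Maf (chromosome 8 from 115682942 to 115707794, minus strand), whose product c-MAF takes part in Il10 expression, had the largest fitted difference of the 9 with all 6 libraries. It was at 96.8, 181 and 134 CPM in WT and at 88.0, 112 and 77.2 CPM in cKO libraries. WT replicates 2 and 3 were above all cKO libraries, while WT replicate 1 was below cKO replicate 2. The means were 137 ± 42.1 CPM and 92.5 ± 18.1 CPM (SD, n = 3 each), and the log2 fold change was -0.57 (SE 0.25, 95% interval -1.16 to 0.02), with an unadjusted p of 0.0577 in edgeR, and the adjusted p was 0.984. Without WT replicate 2, the highest library, the log2 fold change was -0.32 (SE 0.20, 95% interval -0.77 to 0.14). Without WT replicate 1 or cKO replicate 2 it was -0.77 or -0.73, with unadjusted p-values of 0.0116 and 0.0409 from edgeR and adjusted p-values of 0.677 or more. Over all genes, 601 were lower at an unadjusted p under 0.05 without WT replicate 1 and 21 without cKO replicate 2, against 133 with all 6 libraries. Among the other Maf genes, Maff, Mafg and Mafk were each between 41.7 and 129 CPM. Mafk was higher in cKO at an unadjusted p of 0.0317 without WT replicate 2 (log2 fold change 0.38, SE 0.15) and did not pass the adjusted threshold. A macrophage and dendritic cell list of 10 genes summed to 213, 768 and 756 CPM in WT and to 259, 656 and 1147 CPM in cKO libraries. The 3 libraries with the most Maf were all at 656 CPM or more and 2 of those with less were at 213 and 259 CPM, while cKO replicate 3 had the least Maf and the highest sum. The part of these cells in the level of Maf was not tested.

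Bcl6 (chromosome 16 from 23965052 to 23988852, minus strand), the follicular factor that opposes Blimp-1, was at 79.5, 177 and 93.2 CPM in WT and at 99.2, 75.9 and 89.4 CPM in cKO libraries. WT replicate 2 was alone above 100 CPM, and the other five libraries lay within a narrow range. The log2 fold change was -0.40 (SE 0.30, 95% interval -1.11 to 0.30, edgeR adjusted p = 0.984) with WT replicate 2 and 0.03 (SE 0.15, 95% interval -0.31 to 0.37, edgeR adjusted p = 0.997) without it. The interval without that library was the narrowest of the 9.

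Nfil3 (chromosome 13 from 52967209 to 52981073, minus strand) was at 285, 345 and 215 CPM in WT and at 255, 248 and 195 CPM in cKO libraries. All but cKO replicate 3 lay within the WT range. The log2 fold change of -0.28 (SE 0.21, 95% interval -0.77 to 0.22, edgeR adjusted p = 0.984) was -0.10 (SE 0.18) without WT replicate 2. Among its relatives of the PAR leucine zipper family, Dbp was at 9.37 to 23.2 CPM, Tef at 12.6 to 31.9 CPM and Hlf at 9.75 to 38.6 CPM.

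**Figure D2:**
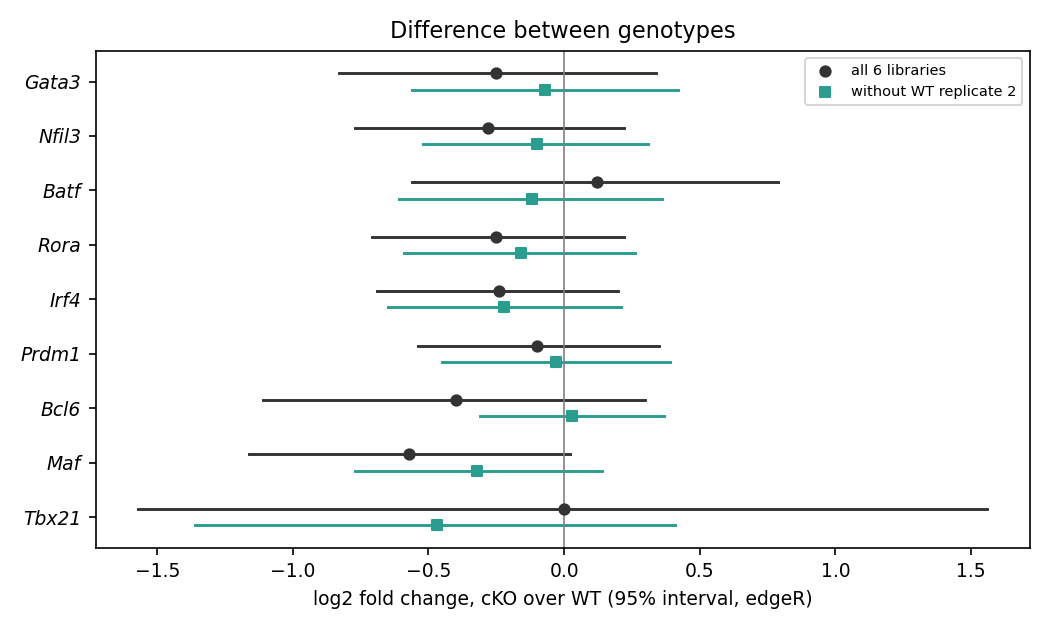
Log2 fold change of cKO over WT for each factor from edgeR, with 95% intervals, using all 6 libraries (black circles) or leaving out WT replicate 2 (green squares). All 18 intervals include 0, and the widest, that of Tbx21 with all libraries, runs from -1.57 to 1.56.

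The exact two-sided permutation test of log2(CPM + 0.5) gave p-values from 0.2 to 0.7 for the 9 factors. For Irf4, Prdm1 and Rora, the value without WT replicate 2 was within 0.1 of that with it, and for Bcl6, Tbx21, Maf and Batf it moved by more than 0.2. Relative to the mean of the other five libraries on the log2 scale, WT replicate 2 was higher by 1.02 for Bcl6, 0.85 for Maf, 0.55 for Gata3 and 0.54 for Nfil3, and it differed by -0.78 for Batf and -2.09 for Tbx21. Its place as an extreme was not particular to these genes: it was the highest or lowest library for 7 of the 9, and among 8447 genes with a mean of at least 10 CPM it was the highest for 37.6% and the lowest for 39.6%. Among the cKO libraries, replicate 3 was the lowest of all 6 for 5 members, and its share as the lowest over all genes was not counted.

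**Figure D3:**
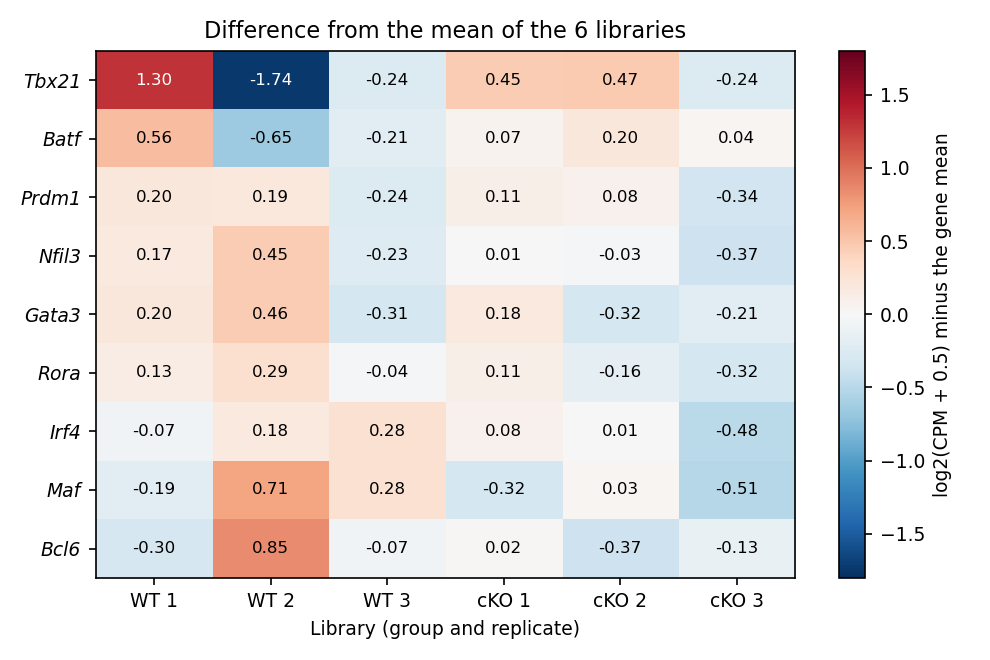
Log2(CPM + 0.5) of each factor in each library minus its mean over the 6 libraries, with red for higher and blue for lower. WT replicate 1 is highest and WT replicate 2 lowest for Tbx21 (1.30 and -1.74) and Batf (0.56 and -0.65), and for Bcl6 WT replicate 2 is the highest (0.85) and WT replicate 1 is below the mean (-0.30).

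Across the libraries some factors moved together. Pearson's r of log2(CPM + 0.5) is given as a description, since the 6 points share the genotype difference and WT replicate 2. Tbx21 and Batf had r = 0.97 over 6 libraries and 0.93 over the 5 without WT replicate 2. The r of Prdm1 and Nfil3 was 0.89 and 0.98, that of Rora and Nfil3 was 0.89 and 0.81, that of Gata3 and Rora was 0.86 and 0.75, and that of Irf4 and Maf was 0.75 and 0.83. Bcl6 ran against Batf, with r = -0.88 and -0.65, and against Tbx21, with -0.88 and -0.52. Other pairs depended on WT replicate 2: Tbx21 and Nfil3 went from -0.28 to 0.95 without it, and Maf and Bcl6 from 0.71 to -0.18. Irf4 and Batf, whose products bind together, had an r of -0.42 and -0.27. Over all 36 pairs the median r was 0.35 with 24 above 0, and 0.33 with 26 above 0 over the 5 libraries.

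Of 8438 other genes with a mean of at least 10 CPM, those most like each factor over the 6 libraries were named by r alone. They were Lmbrd1 (0.986) and Ifi203 (0.978) for Irf4, Decr2 (0.996) and Mfap3 (0.992) for Batf, and Relb (0.993) and Nfkbib (0.986) for Prdm1. For the lineage factors they were 4930523C07Rik (0.99) and Csnk1g2 (0.976) for Maf, Cptp (0.99) for Gata3, C1qtnf12 (0.998) and Serpinb9 (0.997) for Tbx21, Gbp5 (0.994) and LOC115486493 (0.99) for Rora, Clasp2 and Mettl17 (both 0.998) for Bcl6, and Hmgb3 (0.997) and Mrps6 (0.995) for Nfil3. With 6 points such values are common, and their number differed between factors: 497 genes exceeded an r of 0.95 with Bcl6, 188 with Tbx21 and 158 with Batf, but 5 with Irf4 and 13 with Prdm1. These counts include WT replicate 2, which differed from the mean of the other libraries by 1.02, -2.09 and -0.78 for the first group. It differed by 0.22 for Irf4 and 0.23 for Prdm1, and by 0.85 for Maf, which had 14 such genes. The part of that library in the counts was not tested.

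Ratios within a library, which need no scaling, were compared for 2 textbook pairs of opposed factors. The log2 ratio of Prdm1 to Bcl6 was 0.45, -0.71 and -0.22 in WT and 0.05, 0.40 and -0.25 in cKO libraries. The cKO mean was 0.22 higher (exact two-sided permutation test p = 0.7), and the difference was -0.05 without WT replicate 2 (exact permutation p = 0.8, where 2 against 3 libraries cannot give less than 0.2). The log2 ratio of Gata3 to Tbx21 was 3.44, 6.82 and 4.50 in WT and 4.29, 3.76 and 4.60 in cKO libraries. Per kb, Gata3 was 6.79-fold above Tbx21 in WT replicate 1 and 70.9-fold above it in WT replicate 2, and 8.47-fold to 15.2-fold above it in the cKO libraries. Gata3 exceeded Tbx21 in every library, and the groups differed by -0.71 (exact permutation p = 0.8) with WT replicate 2 and by 0.24 (exact permutation p = 0.6) without it.

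The genes around the 9 factors were described by lists. Some genes belong to several lists, among them Il10, Ccr8, Icos and Pdcd1, so the lists are not independent of each other. The effector Treg list holds 24 surface and secreted genes of the activated state, and none of them passed an unadjusted p under 0.05 with or without WT replicate 2. With all libraries 18 of the 24 had a fitted difference below 0 and the median was -0.14, and 21 were below 0 without WT replicate 2, with a median of -0.26. Without WT replicate 1 the median was 0.07. Tnfrsf4, the costimulatory receptor OX40, was at 3072, 1896 and 1678 CPM in WT and at 1879, 1920.1 and 1664 CPM in cKO libraries. Its log2 fold change was -0.28 (SE 0.28), that of Ctla4, an inhibitory receptor central to Treg function, was -0.27 (SE 0.21), and that of Tigit, another inhibitory receptor, was 0.08 (SE 0.32). Without WT replicate 2 these were -0.38, -0.22 and -0.15, so that the direction of Tigit reversed.

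WT replicate 1, the library with the most Tbx21 and Batf, was also the highest of all 6 for 15 of these 24 genes, against 19.5% of the 8447 genes with a mean of at least 10 CPM. Tigit was at 1379.6 CPM there against 612 and 785 CPM in the other WT libraries, and Pdcd1, which encodes PD-1, at 979 CPM against 234 and 366 CPM. It was the lowest for all 13 genes of the resting T cell list, which mark naive and central cells, against 18.0% of the 8447. Klf2, a factor for exit from tissue into blood, was at 285 CPM in WT replicate 1 against 1686 and 956 CPM in the other WT libraries and 854, 1029.7 and 1311 CPM in cKO libraries. S1pr1, the egress receptor under KLF2, was at 154 CPM there and at 362 CPM or more elsewhere. Of the 13 genes in this list, 9 were above 0 in the comparison with a median log2 fold change of 0.15, and all 13 were above 0 with a median of 0.43 without WT replicate 2, but the median was -0.15 without WT replicate 1. None of the 13 passed an unadjusted p under 0.05 with all libraries or without WT replicate 2, and the log2 fold changes were 0.13 (SE 0.56) and 0.78 (SE 0.44) for Klf2, 0.42 (SE 0.42) and 0.68 (SE 0.41) for S1pr1 and 0.19 (SE 0.22) and 0.33 (SE 0.21) for Ccr7.

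The Tbx21-linked list of 15 type 1 genes had 10 members above 0 and a median of 0.10, and 8 above 0 and a median of 0.01 without WT replicate 2. Il18rap, a subunit of the interleukin 18 receptor, was lower in cKO at an unadjusted p of 0.044 with a log2 fold change of -0.65, did not pass the adjusted threshold, and is named because of that value. Without WT replicate 2 it was at -0.49 with an unadjusted p of 0.0716. Its abundant genes included the interferon γ receptor gene Ifngr1, with a log2 fold change of 0.10 (SE 0.19), and Il27ra, with 0.18 (SE 0.18), which were 0.11 and 0.04 without WT replicate 2. Cxcr3, the chemokine receptor that marks T-bet-expressing Tregs, was lowest in WT replicate 2 like Tbx21, at 92.5 CPM against 190.1 to 330.5 CPM elsewhere.

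In the Gata3-linked list of 16 type 2 and tissue genes, 7 were above 0 and the median was -0.02, with none at an unadjusted p under 0.05, and 6 were above 0 with a median of -0.06 without WT replicate 2. Ccr8, a chemokine receptor of tumor Tregs, had a log2 fold change of -0.23 (SE 0.36), Cish, a feedback inhibitor of cytokine signaling, 0.13 (SE 0.20), and Il4ra, a subunit of the interleukin 4 receptor, 0.15 (SE 0.20). Without WT replicate 2, Ccr8 was at -0.48 and Cish at -0.02, Il4ra was at 0.37 with an unadjusted p of 0.0367 and Il4 at -1.27 with 0.0386, both with an edgeR adjusted p above 0.05, and Il4 reached at most 2.76 CPM in any library. Il5 and Il13 were at most 2.20 and 3.78 CPM, so high Gata3 was not accompanied by these cytokine transcripts at more than a few CPM.

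The Rora- and Maf-linked list of 15 type 17 genes had 11 members below 0 and a median of -0.46, which moved to -0.03 without WT replicate 2. That library had the highest Il17a, at 28.6 CPM against 1.39 to 6.98 CPM elsewhere. Ahr, a ligand-activated factor, was lower in cKO at an unadjusted p of 0.0445 (log2 fold change -0.39, SE 0.16), did not pass the adjusted threshold, and was at -0.30 with an unadjusted p of 0.0724 without WT replicate 2. The abundant genes Hif1a, Stat3 and Il10 had log2 fold changes of 0.18 (SE 0.16), 0.09 (SE 0.29) and -0.31 (SE 0.21), and without WT replicate 2 they were at 0.11, -0.09 and -0.30. Il10, a product of effector Tregs, was at 159.6, 173 and 182 CPM in WT and at 108, 181 and 126 CPM in cKO libraries, and its groups overlapped.

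The Bcl6-linked list of 16 follicular genes had 10 members below 0 and a median of -0.07, and 12 below 0 and a median of -0.13 without WT replicate 2. Cd200 was lower in cKO at an unadjusted p of 0.0288 (log2 fold change -0.58, SE 0.22), and at 0.0416 without WT replicate 2 (-0.44, SE 0.18), with neither passing the adjusted threshold. Icos had a log2 fold change of -0.18 (SE 0.22), Pdcd1 of -0.02 (SE 0.50) and Il21r of -0.12 (SE 0.18), which were -0.06, -0.37 and -0.08 without WT replicate 2. Cxcr5, the receptor that defines follicular cells, was at 12.5 to 30.7 CPM, and Il21 was at most 0.669 CPM outside WT replicate 2, where it was at 8.04 CPM.

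Among 23 factors that act beside IRF4 and BATF, 10 were above 0, the median was -0.01 and none passed an unadjusted p under 0.05, and without WT replicate 2, 12 were above 0 with a median of 0.05. Junb, the AP-1 partner of BATF, had the most reads, at 3296, 7389 and 4574 CPM in WT and at 3774, 3847 and 4590.3 CPM in cKO libraries, with a log2 fold change of -0.32 (SE 0.35). Bhlhe40 and Jund had log2 fold changes of -0.22 (SE 0.22) and -0.17 (SE 0.28). The directions of Junb and Jund reversed without WT replicate 2, to 0.05 and 0.13, and Bhlhe40 was at -0.25. Nfkb1 was at -0.28 with all libraries and at -0.34 with an unadjusted p of 0.0443 without that one, and did not pass the adjusted threshold. The relatives Batf2 and Batf3 were at most 0.623 and 0.578 CPM, whereas Irf8 followed Tbx21 and Batf in being highest in WT replicate 1, at 81.8 CPM, and lowest in WT replicate 2, at 15.8 CPM.

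**Figure D4:**
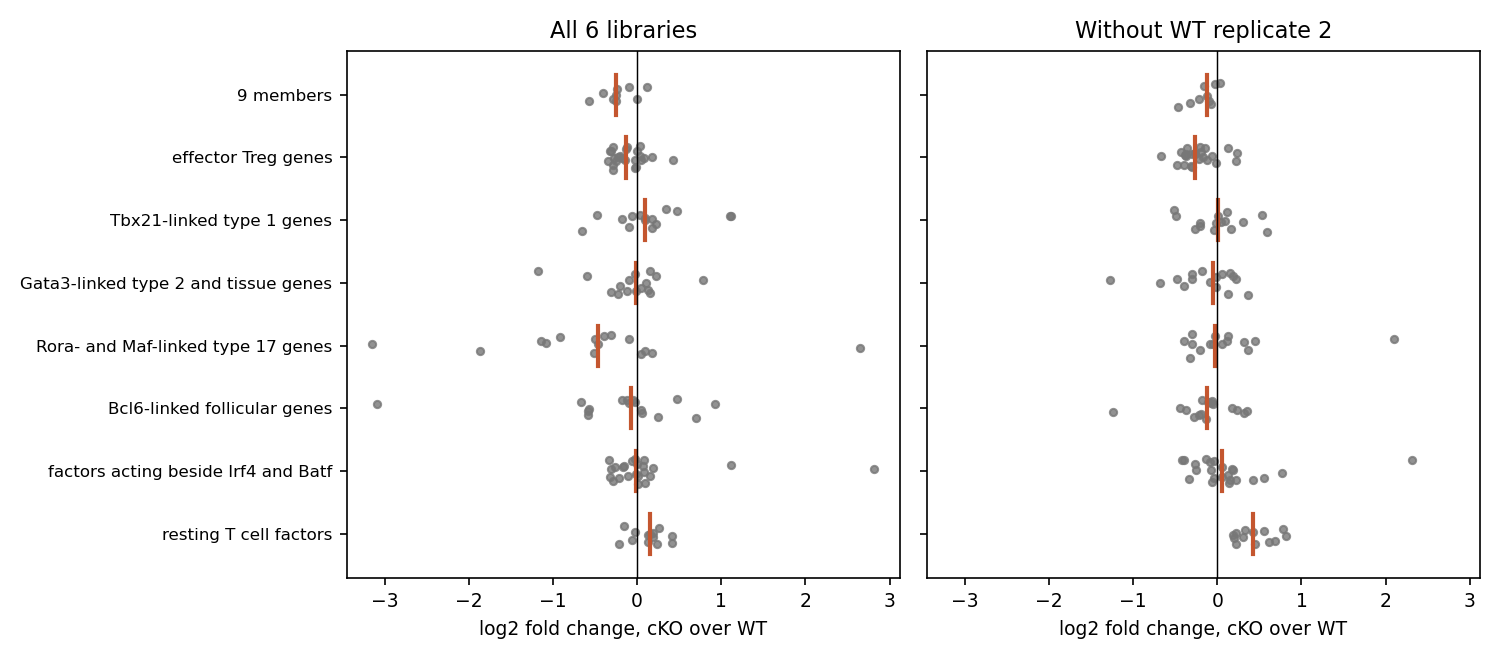
Log2 fold change of cKO over WT for each gene (grey points) of the 9 factors and 7 lists, with the list median as an orange line, for all 6 libraries (left) and without WT replicate 2 (right). The median of the type 17 list moves from -0.46 to -0.03, and the points farthest from 0 with all libraries, Il17f at -3.15, Il21 at -3.09, Batf2 at 2.82 and Il22 at 2.65, are genes under 10 CPM in every library.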

How the data were processed

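The authors deposited an expected count per gene symbol and library, made from aligned reads and not normalized. The submitters' processing notes list Bowtie2 2.3.4.3, RSEM 1.3.1 and the build GRCm38, with the annotation and strand setting not given in the sources used here. Libraries were made from total RNA with a SMARTER mRNA kit and paired-end reads. Of the deposited values 21.6% were not whole (tolerance 1e-06), and all were rounded. Groups followed the genotype labels. The 15315 of 15319 genes with at least 1 count were tested with edgeR 4.0.16 in R 4.3.3 (quasi-likelihood test, TMM scaling, Benjamini-Hochberg adjustment over all of them, threshold 0.05), with genotype as the only term. CPM are counts per 1000000 of the TMM-scaled total, and 3 counts, the limit that a count of 0 allows for counting error only, equal 0.133 to 0.156 CPM. Gene lengths, positions and overlaps came from GENCODE vM21 on GRCm38, and promoters from RefSeq.

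The 9 members and all lists were chosen with earlier results of these data known, and the relatives of the members after their values were seen. Genes named besides the members were the 3 of the highest mean CPM in each list, those past the adjusted threshold, the 2 genes most like each member with a mean of at least 10 CPM, and others named for a stated value; some genes of this rule are not reported here. Alternatives were DESeq2 1.42.0, limma 3.58.1 voomWithQualityWeights, a block for the replicate number, filterByExpr with a minimum count of 10, scaling by size factors or by library size alone, omission of each library, and, chosen after seeing the data, DESeq2 without WT replicate 2. The edgeR fit was first tested on simulated data holding 200 changed genes.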

Additional observations from a re-analysis of the deposited data

How the results depend on the processing

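No member passed an adjusted p under 0.05 under any alternative. The count of members at an unadjusted p under 0.05, 0 in the report, was 1 with library size only (Maf), and leaving out each library gave 0 to 2: Maf and Batf without WT replicate 1, and Maf without cKO replicate 2. Over all genes, 144 were higher and 133 lower at that threshold in the main fit, and 121 and 147 with library size only. These counts were 273 and 601 without WT replicate 1, and 51 and 21 without cKO replicate 2. The direction reversed for Batf (-0.12 without WT replicate 2, -0.13 with DESeq2 without it), Bcl6 (0.03 and 0.03) and Prdm1 (0.03 without cKO replicate 3), none of them past a threshold before or after. Over the libraries left out the ranges were -0.12 to 0.52, -0.61 to 0.03 and -0.23 to 0.03. Tbx21, at 0.00 with all libraries and so without a direction, ranged from -0.47 to 1.09. The 112 values of members that did not reverse, those of Tbx21 included, stayed on the same side of the adjusted threshold. Between groups, the log2 ratio of Prdm1 to Bcl6 went to -0.05 and that of Gata3 to Tbx21 to 0.24 without WT replicate 2, in ranges over the libraries left out of -0.05 to 0.53 and -1.45 to 0.24. The cause was not tested.

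Over all genes, the counts past an adjusted p under 0.05, 0 higher and 0 lower, were 1 and 1 with DESeq2 and 1 and 2 with DESeq2 without WT replicate 2, and leaving out each library with edgeR gave 0 to 1 lower, the 1 without WT replicate 2. At an unadjusted p under 0.05, 144 genes were higher and 133 lower. These were 95 and 212 with DESeq2, 262 and 281 with voomWithQualityWeights, and 45 to 287 higher and 20 to 601 lower when each library was left out, with the most lower genes without WT replicate 1. With filterByExpr, 39 were higher, where fewer genes were tested.

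Medians of lists moved as follows. The Gata3-linked list ranged from -0.17 to 0.13 and the list of factors beside Irf4 and Batf from -0.11 to 0.05 when each library was left out. The latter was -0.09 with library size only and 0.05 with DESeq2 without WT replicate 2. The type 17 list was -0.06 with voomWithQualityWeights, -0.04 with DESeq2 without WT replicate 2, and -0.59 to -0.03 over the libraries left out. The other 90 list values moved by less than 1 SD between replicates, though the medians of the effector Treg and resting T cell lists, 0.07 and -0.15 without WT replicate 1, changed sign. Depth limits the genes of the lists at a few counts more than the members, whose lowest value was 163 counts.

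Same-numbered libraries did not all deviate together (correlations of -0.012, -0.214 and 0.199), so the numbers were not used as pairs. With the replicate number as a block, 39 genes were higher and 46 lower at an unadjusted p under 0.05, 1 member (Maf, adjusted p = 0.986 from edgeR) was among them, and the median of the Bcl6-linked list was 0.06.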
